A study of Mus musculus with 6 samples.

Results

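The transcripts of 10 cytosolic heat shock genes were measured in arthritic mouse synovial fibroblasts (SFs) with and without the antipsychotic amisulpride. The genes were chosen by name, with earlier results of these data known. They are Hsf1, Hspa1a, Hspa1b, Hspa8, Hsph1, Dnajb1, Hspb1, Hsp90aa1, Hsp90ab1 and Bag3. Each name stood on 1 row of a table of 49548 genes. All 10 were among the 12614 genes tested, those that reached 10 in 3 or more of the 6 libraries.

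The heat shock response is the way in which a cell answers an excess of unfolded protein in its cytosol. HSF1, the transcription factor encoded by Hsf1, is held inactive by chaperones, and is released, forms trimers and binds heat shock elements in promoters when those chaperones are taken up by unfolded clients. The genes it switches on encode HSP70 and HSP90 chaperones, their helpers and small heat shock proteins, so their transcripts are widely used as a readout of proteotoxic stress. HSF1 itself is controlled mainly at the protein level, and the amount of its transcript is not a measure of its activity.

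Both groups were primary SFs, the mesenchymal cells of the joint lining, cultured from the ankle joints of hTNFtg mice. These mice carry a human TNF transgene and develop destructive arthritis. Per the methods the mice were 8 weeks old and of CBA C57BL/6J background, and CD45+ cells were depleted at passage 1. The labels give 3 libraries as untreated, where the methods speak of vehicle, and 3 libraries as treated with 500 μM amisulpride for 48 h. No other time or dose and no heat-shocked sample was analysed here. The methods call the replicates biological without saying whether they came from separate mice, so p-values measure the spread between these libraries.

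The values are normalised counts, that is, reads per gene that the authors scaled by library and rounded. With the 3′ end kit used (QuantSeq), reads fall near the end of a transcript. Approximate depths were 2.52 to 4.71 M reads per library, and 3 reads, the upper limit for a gene listed at 0, were worth 2.50 to 5.37 normalised counts. Depth was lowest in amisulpride replicate 3, which also stood apart from the other 5 libraries on the leading principal component (37.1% of the variance). Its value there was 73.9, against −38.2 to 10.4. All 11 fibroblast markers passed the filter on low values, with summed values of 50604 to 73716 in untreated and 60191 to 111755 in treated libraries. All 10 myeloid markers passed it too, with sums of 2375 to 4110 and 2159 to 4117. These sums were mostly Lyz2, with 3046 of 4110 in untreated replicate 1, and single markers differed in both directions. Cd14 had 121, 69 and 76 in untreated and 47, 25 and 13 in treated libraries, and Adgre1 had 39, 25 and 14 and 59, 43 and 32. Of 5 endothelial markers 0 passed, and Cdh5 and Tie1 were at 0 in every library. The part of myeloid RNA in the results was not tested.

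The promoter sequences available were searched for letters of the element that HSF1 recognises. A heat shock element is built of inverted GAA units, and was searched on both strands as 2 units (GAANNTTC or TTCNNGAA) and as 3 units (GAANNTTCNNGAA or TTCNNGAANNTTC, each of which contains overlapping 2-unit matches). The promoter table, from RefSeq on build GRCm38.p6, spans 250 bases before to 50 bases after each start site and held 6 of the 10 genes, in 8 windows. Hsf1, Hspa8, Hsp90aa1 and Hsp90ab1 had no entry. The 2-unit motif stood in 5 of these 6 genes, against 15.1% of all 32851 promoters, and the 3-unit motif in 1, against 0.603%. A match is a description of letters and not a sign of binding. The upstream part of the Hspa1a promoter is shown first, because Hspa1a and Hspa1b are the best known targets of HSF1. It is followed by the stretch around each motif in the others, with motifs in capitals.
Hspa1a, chr17:34972157-34972406, minus strand: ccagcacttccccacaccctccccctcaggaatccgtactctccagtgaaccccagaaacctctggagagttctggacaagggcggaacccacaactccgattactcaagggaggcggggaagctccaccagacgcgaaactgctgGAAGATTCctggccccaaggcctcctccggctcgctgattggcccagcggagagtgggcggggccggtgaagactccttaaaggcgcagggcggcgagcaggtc
Hspa1b, chr17:34959320-34959357, minus strand: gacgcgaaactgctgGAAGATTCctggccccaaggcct
Hspb1, chr5:135887787-135887844, plus strand: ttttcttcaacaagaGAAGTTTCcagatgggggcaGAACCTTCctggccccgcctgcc
Hsph1, upstream, chr5:149636347-149636384, minus strand: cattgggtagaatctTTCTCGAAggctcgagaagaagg
Hsph1, downstream, chr5:149636287-149636315, minus strand: gtaaaatgctgcagaTTCTGGAAAGTTCt
Bag3, chr7:128523610-128523632, plus strand: ctctggatgggaccaGAAGTTTC

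The motif began 104 bases before the start in both Hspa1a and Hspa1b, whose promoters differed at 4 of 300 bases (98.7% identical). Hspb1 had motifs at 117 and 97 bases before the start. In Hsph1, taking the first of its annotated starts, one motif began 33 bases before the start, and the 3-unit motif began 36 bases after it. The motif of Bag3 began 42 bases after the start. Neither window of Dnajb1 held the letters searched.

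None of the 10 transcripts passed a threshold after amisulpride in the fit without a replicate block. Their median change was close to that of all genes. With limma, 3 had higher and 7 lower mean log2 values in treated SFs, where 50.1% of all genes tested were higher. Their log2 fold changes ran from −0.75 to 0.54 with a median of −0.14, against 0.00 over all genes. The study used thresholds of 1 for the log2 fold change, in either direction, and 0.05 for the unadjusted p-value (the study thresholds). Of the 10 genes, 0 passed them, where 5.7% of all genes did (2.69% higher and 3.01% lower). An unadjusted limma p-value under 0.05 was reached by 0 of 10, where 10.9% of all genes reached it. An adjusted limma p-value under 0.05 was reached by 0 of 10, where 0.285% of all genes did. With the libraries paired by replicate number as a block, Hspa1b had an unadjusted limma p of 0.0376. In that fit 14.6% of all genes were under 0.05. The treated and untreated values overlapped in each of the 10, where 16.5% of all genes tested had groups that did not overlap. In bulk RNA, fewer cells with a transcript and less of it per cell cannot be told apart. A p-value above the threshold does not show that nothing changed, and the intervals give the size that could have been missed. In the fit without a block, the upper 95% limit of the log2 fold change was under 1 for 9 of the 10 genes, the exception being Hspa8. The lower limit was above −1 for 7, the exceptions being Hsf1, Hspa1a and Hspa1b.

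**Figure D1:**
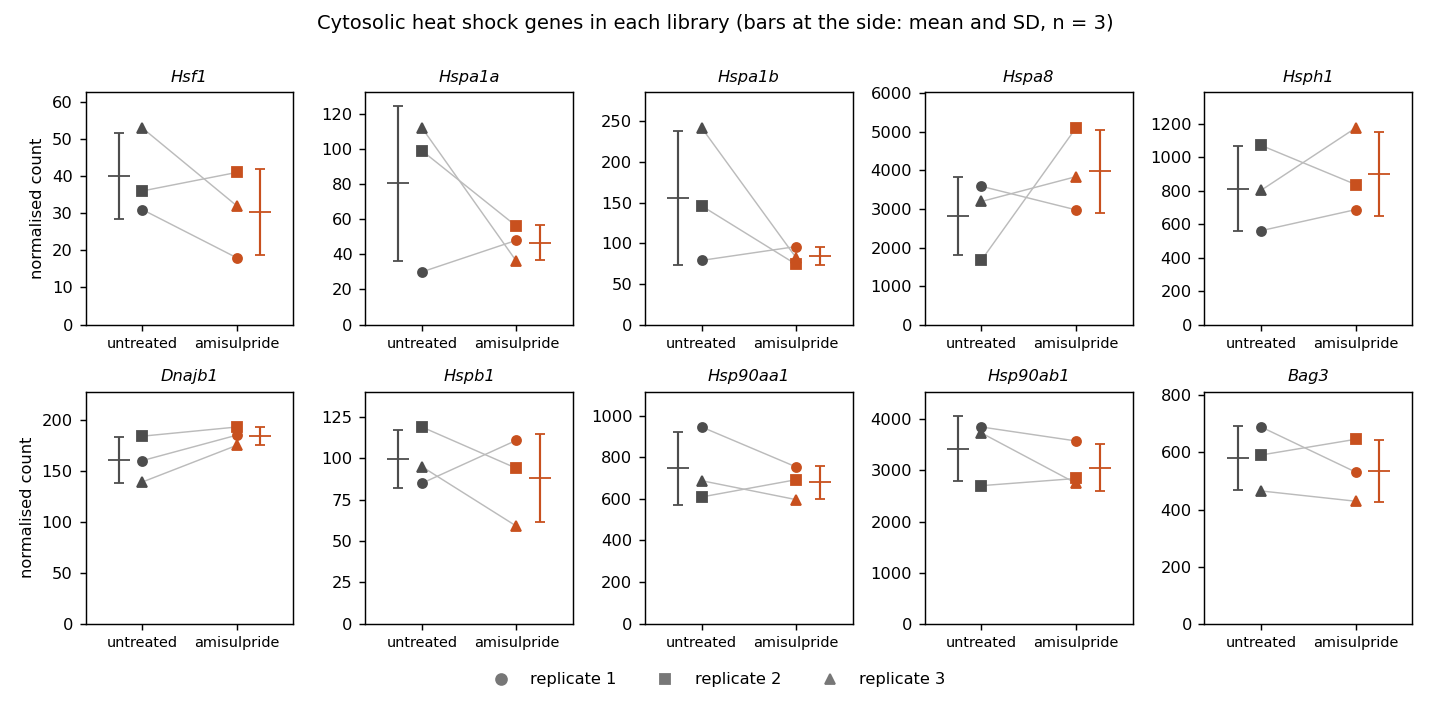
Normalised counts (vertical axis, linear, from 0) of the 10 heat shock genes in each untreated (grey) and amisulpride (orange) library. Symbols give the replicate number, lines join libraries of the same number, and the bars at the side are mean and SD (n = 3). The groups overlap in every panel, and the untreated values of Hspa1a and Hspa1b spread the most relative to their mean.

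The sum of the 10 genes was 0.252%, 0.189% and 0.242% of all normalised counts in the untreated replicates 1 to 3. In the treated ones it was 0.228%, 0.269% and 0.204%. The groups overlapped in this share. Most of it came from Hspa8 and Hsp90ab1, with 3589 and 3851 of 10021 normalised counts in untreated replicate 1. Hspa1a and Hspa1b had 30 and 79 there, so the share says little about the inducible HSP70 genes.

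Hsf1 (ENSMUSG00000022556, mm10, chr15:76477445-76500972, plus strand), the regulator of the response, had 31, 36 and 53 normalised counts in the untreated libraries and 18, 41 and 32 in the treated ones. These rest on approximately 18 to 64 reads per library. The lowest value was treated and the highest untreated, with the remainder interleaved. The mean was 40 ± 11.5 in untreated and 30.3 ± 11.6 in treated SFs (SD, n = 3). Limma estimated the change at −0.43 ± 0.40 (log2, SE), and the adjusted p was 0.742. With 1 library left out the change ranged from −0.68 (without amisulpride replicate 2) to −0.10 (without amisulpride replicate 1). The 95% interval of this change, −1.30 to 0.44, reaches past the study's fold threshold.

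Hspa1a and Hspa1b encode the inducible HSP70 proteins, which are nearly the same in sequence and are low in unstressed cells. Both lie on the minus strand of chromosome 17, Hspa1b at chr17:34956436-34959238 (ENSMUSG00000090877) and Hspa1a at chr17:34969190-34972156 (ENSMUSG00000091971), with 9951 bases between them. Their transcripts share long stretches. Of all 40-base words, 61.3% of those of Hspa1a stand also in Hspa1b and 65.0% of those of Hspa1b in Hspa1a. The last 300 bases, where 3′ end reads fall, share 0% of their words, so reads from these ends differ between the genes. Gm20481 overlaps Hspa1a on the opposite strand and was listed at 0 or 1 in every library.

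Hspa1a had 30, 99 and 112 normalised counts in untreated replicates 1, 2 and 3 and 48, 56 and 36 in the treated ones. All 3 treated values lay within the untreated range, above untreated replicate 1 and below the other two. The mean was 80.3 ± 44.1 in untreated and 46.7 ± 10.1 in treated SFs (SD, n = 3). Limma estimated the change at −0.59 ± 0.46 (log2, SE, 95% interval −1.60 to 0.42), and the adjusted p was 0.696.

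Hspa1b also had its 2 highest values in untreated replicates 3 and 2. Its values were 79, 146 and 242 in the untreated libraries and 96, 74 and 82 in the treated ones. Untreated replicate 1 lay among the treated values, while replicates 2 and 3 lay above them all. The mean was 156 ± 81.9 in untreated and 84 ± 11.1 in treated SFs (SD, n = 3). The log2 fold change was −0.75 ± 0.37 (SE, 95% interval −1.57 to 0.07), with an unadjusted limma p of 0.0699 and an adjusted p of 0.505. This was the lowest p-value of the 10 genes. With the replicate number as a block the unadjusted p of Hspa1b was 0.0376 and the adjusted p 0.301. It was then 1 of 10 genes with an unadjusted p under 0.05, where 14.6% of all genes had one, and its change remained short of the study's fold threshold.

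The spread between untreated libraries set what could be seen in these genes. The coefficient of variation was 54.9% for Hspa1a and 52.6% for Hspa1b in untreated SFs, the highest of the 10 genes there, against 21.6% and 13.3% in treated SFs. Summed over both genes, the values were 109, 245 and 354 in the untreated and 144, 130 and 118 in the treated libraries. The log2 change of the sum was −0.70 ± 0.38 (SE), where limma gave an adjusted p of 0.544. With the replicate block its unadjusted limma p was 0.0495 and its adjusted p 0.342. Untreated replicate 1 was the lowest untreated library for both genes, and the call depended on it. Without it, the log2 fold change was −1.18 for Hspa1a (unadjusted limma p 0.00573, adjusted p 0.337), −1.16 for Hspa1b (0.00529 and 0.336) and −1.17 for the sum (0.00247 and 0.274), and 2 of the 10 genes passed the study thresholds. Without untreated replicate 3, the highest one, the change was −0.25 for Hspa1a (unadjusted limma p 0.636), −0.36 for Hspa1b (0.345) and −0.33 for the sum (0.412). Over all alternatives the adjusted p was 0.337 to 0.934 for Hspa1a, 0.225 to 0.854 for Hspa1b and 0.261 to 0.878 for the sum. Within replicate numbers, Hspa1a differed by 0.66, −0.81 and −1.61 on the log2 scale and Hspa1b by 0.28, −0.97 and −1.55, treated over untreated, in replicates 1, 2 and 3. In pair 1 the treated library was thus the higher one, and in pairs 2 and 3 the lower one. The step in value that corresponds to 1 read was uncertain in untreated replicate 1, and with it the number of reads behind its values.

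**Figure D2:**
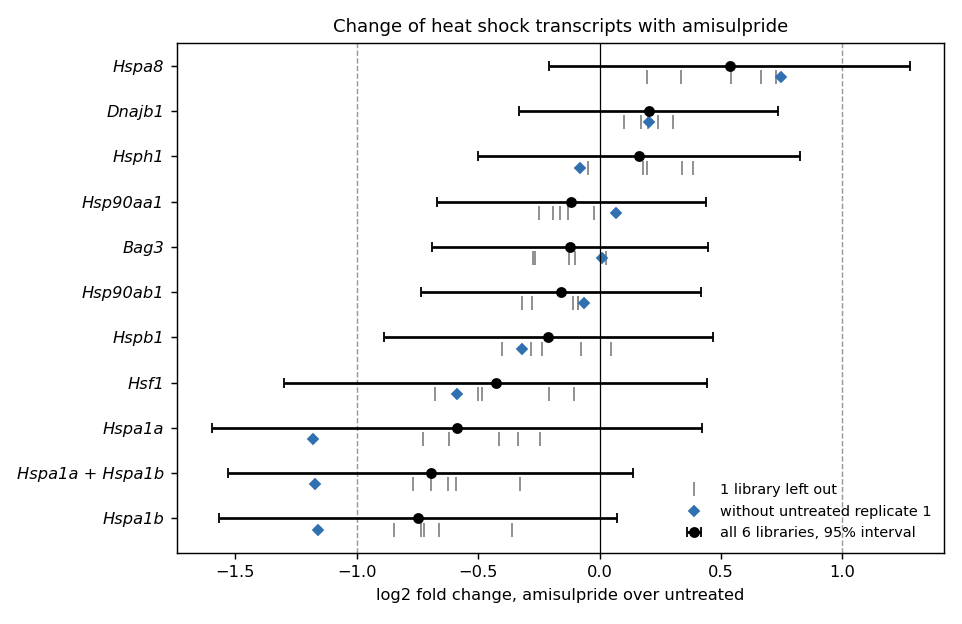
Log2 fold change, amisulpride over untreated, of each heat shock gene and of the sum of Hspa1a and Hspa1b. Black points and bars are the limma estimate and 95% interval from all 6 libraries, without a replicate block. Grey ticks are the estimates with 1 library left out, and blue diamonds those without untreated replicate 1. Dashed lines are the study's fold threshold of 1 in either direction. Every interval includes 0, and the diamonds of Hspa1a, Hspa1b and their sum lie beyond −1.

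Hspa8 (ENSMUSG00000015656, chr9:40800984-40810087, plus strand) encodes HSC70, the HSP70 that cells make all the time. It had 3589, 1673 and 3195 normalised counts in the untreated libraries and 2978, 5106 and 3840 in the treated ones. The lowest value was untreated replicate 2 and the highest amisulpride replicate 2, and the remaining 4 values overlapped. The mean was 2819 ± 1012 in untreated and 3975 ± 1070 in treated SFs (SD, n = 3). The log2 fold change was 0.54 ± 0.34 (SE, 95% interval −0.21 to 1.28), with an adjusted limma p of 0.609. The pairs differed by −0.27, 1.61 and 0.27 on the log2 scale, so the mean difference rested mostly on replicate 2.

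Hspa8 has the largest share of transcript-end sequence in common with other genes among the 10. Of the 40-base words in the last 300 bases of its transcripts, 77.8% occur also in 1 or more of 11 other genes, mostly processed pseudogenes, which are reverse-transcribed copies of the mRNA. The closest is Gm15459, with 76.4% of the words, which was listed at 1390, 1394 and 1161 in untreated and 1029, 3266 and 1036 in treated libraries. Its value in amisulpride replicate 2 was more than that in any other library, as for Hspa8 itself. Gm8355, with 52.1% of the words, had 184, 229 and 187 in untreated and 145, 783 and 319 in treated libraries, again with the highest value in amisulpride replicate 2. How many reads of these pseudogenes came from Hspa8 transcripts cannot be told from the values.

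Summed with the 10 such genes in the table, a choice made after seeing the data, Hspa8 had 5233, 3350 and 4595 in the untreated and 4209, 9255 and 5371 in the treated libraries. For the sum, the log2 fold change was 0.46 with an unadjusted limma p of 0.198, on the same side of the threshold as Hspa8 alone. The small nucleolar RNA gene Snord14e lies within Hspa8 on the same strand, and its value was 50.4% to 52.4% of that of Hspa8 in each of the 6 libraries. Whether the same reads were counted for both genes was not tested.

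**Figure D3:**
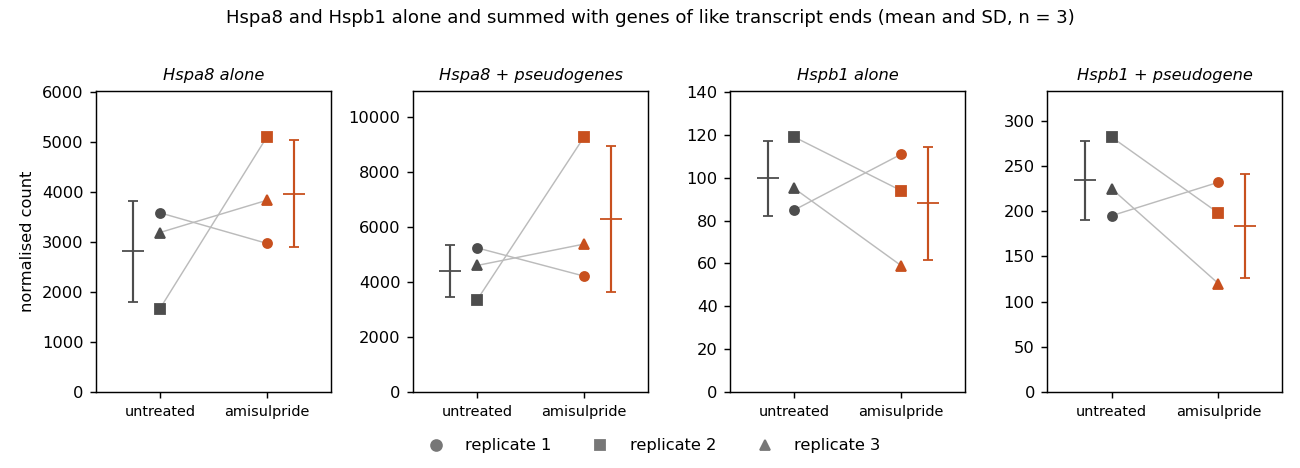
Normalised counts (vertical axis, linear, from 0) of Hspa8 and Hspb1 alone and summed with the genes that share 40-base words with their transcript ends, by library, with replicate symbols joined by number and mean and SD at the side (n = 3). The groups overlap in all 4 panels, and amisulpride replicate 2 is the highest library for Hspa8 in both forms.

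Hsph1, Dnajb1 and Bag3 encode proteins that work with HSP70. Hsph1 (ENSMUSG00000029657, chr5:149614287-149636376, minus strand) encodes HSP110, which exchanges the nucleotide bound to HSP70 and keeps unfolded clients soluble. It carried the 3-unit motif shown above. It had 562, 1072 and 804 normalised counts in the untreated and 688, 838 and 1177 in the treated libraries, and the groups overlapped. The means were 813 ± 255 and 901 ± 251 (SD, n = 3). The estimated log2 fold change was 0.16 ± 0.30 (SE), with an adjusted limma p of 0.876.

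Dnajb1 (ENSMUSG00000005483, chr8:83608193-83612653, plus strand) encodes HSP40, the J-domain partner that brings clients to HSP70 and starts its ATPase. It had 160, 184 and 139 normalised counts in the untreated and 185, 193 and 175 in the treated libraries. It was the only one of the 10 genes that was higher in the treated library of all 3 replicate numbers, by 0.21, 0.07 and 0.33 on the log2 scale. The means were 161 ± 22.5 and 184 ± 9.02 (SD, n = 3), and the groups overlapped through untreated replicate 2. Its log2 fold change was 0.20 ± 0.24 (SE), with an adjusted limma p of 0.801. The upper 95% limit was 0.73, so a gain as large as the study's threshold lay outside the interval.

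Bag3 (ENSMUSG00000030847, chr7:128523616-128546981, plus strand) encodes a co-chaperone that releases clients from HSP70 and passes damaged ones to autophagy. It had 689, 591 and 465 normalised counts in the untreated and 531, 646 and 429 in the treated libraries. The ranges were nearly the same, with replicate 3 the lowest in each group. The means were 582 ± 112 and 535 ± 109 (SD, n = 3). Its log2 fold change was −0.12 ± 0.26 (SE, 95% interval −0.69 to 0.45), with an adjusted limma p of 0.894.

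Hspb1 (ENSMUSG00000004951, chr5:135887919-135889563, plus strand) encodes HSP25, the mouse HSP27, a small heat shock protein that binds unfolded clients without ATP and is abundant in contractile and connective tissue cells. It had 85, 119 and 95 normalised counts in the untreated and 111, 94 and 59 in the treated libraries. The lowest value was amisulpride replicate 3, which rests on approximately 33 reads, and the others overlapped. The means were 99.7 ± 17.5 and 88 ± 26.5 (SD, n = 3). Limma gave a log2 fold change of −0.21 ± 0.31 (SE, 95% interval −0.89 to 0.47), with an adjusted limma p of 0.840. The pseudogene Hsp25-ps1 shares 25.1% of the words in its transcript end and was listed at 110, 163 and 130 in the untreated and 121, 104 and 61 in the treated libraries. Both genes had their lowest value in amisulpride replicate 3. Their sum had a log2 fold change of −0.39, with an unadjusted limma p of 0.221.

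The HSP90 chaperones mature kinases, steroid receptors and other regulators, and also keep HSF1 inactive. Hsp90aa1 (ENSMUSG00000021270, chr12:110690605-110702728, minus strand) encodes the stress-inducible form. It had 945, 609 and 687 normalised counts in the untreated and 753, 692 and 596 in the treated libraries. Its log2 fold change was −0.12 ± 0.25 (SE, 95% interval −0.67 to 0.44), with an adjusted limma p of 0.896. The treated values lay close to the 2 lower untreated ones, and the means were 747 ± 176 and 680 ± 79.1 (SD, n = 3). Of the words in its transcript ends, 40.3% occur in the pseudogenes Gm12346 and Gm5844, and the sum with these gave the same log2 fold change of −0.12.

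Hsp90ab1 (ENSMUSG00000023944, chr17:45567775-45573271, minus strand) encodes the constitutive form. It had 3851, 2703 and 3734 normalised counts in the untreated and 3578, 2843 and 2750 in the treated libraries. The lowest value was untreated, and all treated values lay within the untreated range. The means were 3429 ± 632 and 3057 ± 454 (SD, n = 3). Limma gave a log2 fold change of −0.16 ± 0.26 (SE, 95% interval −0.74 to 0.42), with an adjusted limma p of 0.858.

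The ratio of inducible to constitutive HSP90 transcript within a library does not change when a library is rescaled by 1 factor. On the log2 scale it was −2.03, −2.15 and −2.44 in the untreated and −2.25, −2.04 and −2.20 in the treated libraries. The means were −2.20 ± 0.213 and −2.16 ± 0.111 (SD, n = 3), a difference of 0.04 that is smaller than the SD within either group. The difference was 0.13 with quantile normalisation, which is not a single factor, and −0.08 to 0.13 with 1 library left out.

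The members varied among the 6 libraries in different ways. Over the libraries, Pearson's r between log2 values was 0.867 for Hspa1a with Hspa1b and 0.795 for Hsp90aa1 with Hsp90ab1. It was −0.965 for Hsph1 with Hsp90aa1 and −0.864 for Hsph1 with Hsp90ab1. These are descriptions over 6 points that share a library, its depth and its scaling, and the pairs were chosen after their values were seen. By replicate number, 5, 6 and 3 of the 10 genes were higher in the treated library of pairs 1, 2 and 3, so no pair had all members on one side. The genes outside the group whose values over the 6 libraries were most like the mean profile of the 10 members were Carmil1 (r = 0.988), Adk (0.984), Nrp1 (0.979), Stam2 (0.977) and Pds5a (0.973), out of 11025 protein-coding genes compared. None of these 5 is a known chaperone.

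Other genes of the cytosolic folding system were taken from lists. Of the factors related to HSF1, Hsf2 and Hsbp1, which encodes a protein that binds and restrains HSF1 trimers, were tested, and Hsf4 and Hsf5 were too low. Hsf2 had 95, 97 and 73 normalised counts in the untreated and 84, 60 and 29 in the treated libraries, a change of −0.72 ± 0.38 (log2, SE) and an adjusted limma p of 0.528. Hsbp1 changed by less than its spread, at 0.18 ± 0.24 (log2, SE) and an adjusted limma p of 0.830. The groups overlapped for both genes.

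Among the other cytosolic HSP70 genes, 3 of 5 tested were higher and 2 lower. Their median was 0.43 (−0.03, 0.03 and 0.05 without untreated replicate 1, untreated replicate 2 and amisulpride replicate 3). An unadjusted limma p-value under 0.05 was reached by 0, where 10.9% of all genes reached it. Hspa14, which encodes an HSP70 bound to the ribosome, had 120, 109 and 118 normalised counts in the untreated and 222, 206 and 116 in the treated libraries. Its log2 fold change was 0.59 (adjusted limma p 0.505). Without amisulpride replicate 3 it was 0.88 (unadjusted limma p 0.00378, adjusted p 0.131), and without amisulpride replicate 1 it was 0.42. Hspa4 had a log2 fold change of −0.31. This was −0.71 without amisulpride replicate 3 (unadjusted limma p 0.00845, adjusted p 0.193), −0.10 without amisulpride replicate 1 and −0.12 without amisulpride replicate 2. Of 12 J-domain genes, which encode partners like HSP40, 4 were higher and 8 lower, with a median of −0.05. The study thresholds were passed by 0, where 5.7% of all genes passed them. The extremes by p-value were Dnajb4 at 0.36 and Dnaja2 at −0.32. Of 7 exchange factors and regulators of HSP70, 2 were higher and 5 lower, with a median of −0.05. Again 0 passed the study thresholds, where 5.7% of all genes did. Bag2 had the lowest p of these, with 68, 108 and 112 normalised counts in the untreated and 59, 27 and 88 in the treated libraries (log2 fold change −0.84, adjusted limma p 0.503), and Bag5 was at 0.19.

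The co-chaperones of HSP90 had a lower median, −0.40 over 15 genes, of which 4 were higher and 11 lower. Of the 15, 1 had an unadjusted p-value under 0.05, 4 had groups that did not overlap, and 0 passed the study thresholds, against 10.9%, 16.5% and 5.7% of all genes. Chordc1 encodes CHORD-domain protein 1, which binds HSP90. It had 330, 250 and 277 normalised counts in the untreated and 171, 124 and 165 in the treated libraries. Every treated value lay below every untreated one. The log2 fold change was −0.90 ± 0.25 (SE), short of the study's fold threshold, with an unadjusted limma p of 0.00436 and an adjusted p of 0.192. In the other direction Pih1d1 had the lowest p, with a log2 fold change of 0.26.

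Of 6 small heat shock protein genes other than Hspb1, 4 were tested, and Hspb6 passed the study thresholds, where 5.7% of all genes did. Hspb6 (chr7:30552178-30555443, plus strand) encodes HSP20, a small heat shock protein best known from smooth muscle. It had 57, 60 and 78 normalised counts in the untreated and 27, 27 and 21 in the treated libraries. The groups were well apart, at 65 ± 11.4 and 25 ± 3.46 (SD, n = 3). The log2 fold change was −1.34 ± 0.32 (SE), with an unadjusted limma p of 0.00134 and an adjusted p of 0.113, so Hspb6 did not pass after adjustment over all genes. With weights per library the adjusted p was 0.0494, and it was 0.0494 to 0.529 over all alternatives.

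Hspb2 had 14, 14 and 13 normalised counts in the untreated and 5, 1 and 2 in the treated libraries. It passed the filter through the untreated libraries alone and would not have been tested without them. No test result of its own is given, though the list median of −0.89 includes it. Of its treated values, 2 lay under the value of 3 reads. It overlaps Cryab on the opposite strand, and whether the counting used strand is not given in the sources used here. Of the other tested members, Cryab, which encodes αB-crystallin, had 298, 417 and 275 in the untreated and 372, 331 and 775 in the treated libraries, and Hspb8 had 2366, 1297 and 1826 and 2042, 1203 and 923. Both overlapped between groups. Because skeletal muscle is rich in small heat shock proteins, its markers were read beside them. Of 7, 1 passed the filter, Myh4 was at 0 throughout, and their sum was 18 to 58 in untreated and 28 to 44 in treated libraries.

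**Figure D4:**
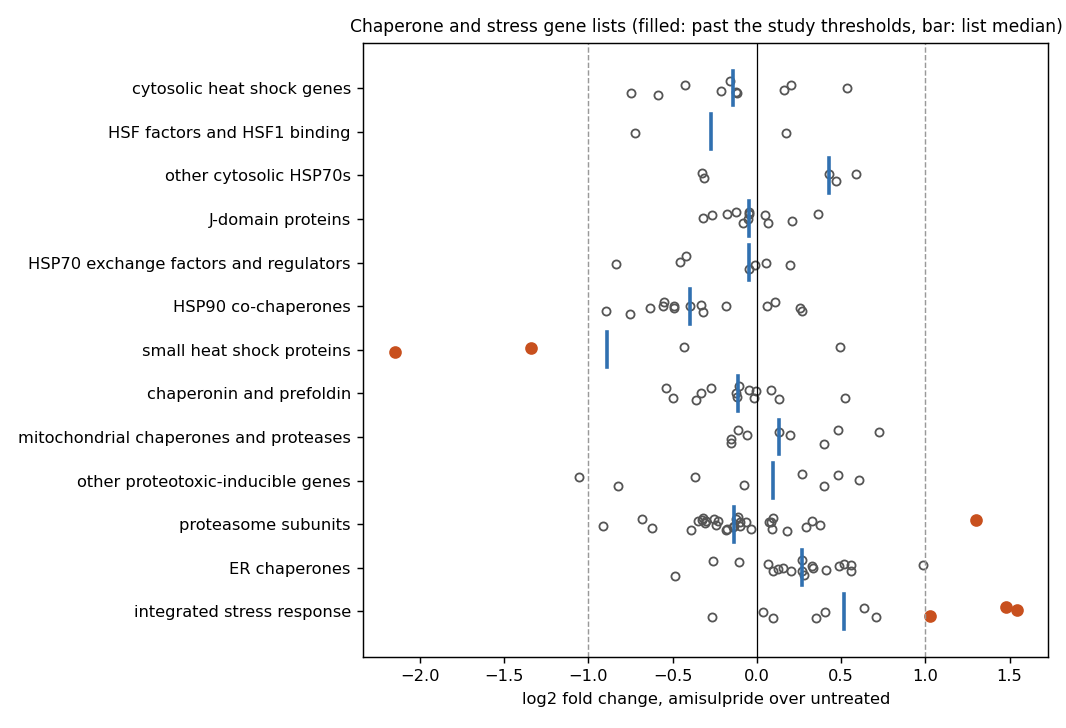
Log2 fold change, amisulpride over untreated, of each tested gene (circle) of the 10 heat shock genes and of 12 other chaperone and stress gene lists. Filled circles passed the study thresholds, blue bars are list medians, and dashed lines mark the fold threshold of 1. The leftmost filled circle, Hspb2, entered the test through its untreated libraries alone. The rightmost, Atf3, would not have entered it without its treated libraries. The median was −0.14 for the heat shock genes and 0.52 for the integrated stress response genes. Medians of the other lists ran from −0.89 (small heat shock proteins, Hspb2 included) to 0.43 (other cytosolic HSP70 genes).

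The chaperonin TRiC, which folds actin and tubulin, and its partner prefoldin had 3 higher and 11 lower of 14 genes, with a median of −0.11. An unadjusted limma p-value under 0.05 was reached by 0, where 10.9% of all genes reached it. Cct7 had the lowest p, with 4230, 3610 and 3513 normalised counts in the untreated and 3005, 2345 and 2494 in the treated libraries (log2 fold change −0.54, adjusted limma p 0.464), and Cct2 was at 0.53. Of 9 mitochondrial chaperones and proteases, 5 were higher and 4 lower, with a median of 0.13. Dnaja3, a mitochondrial J-domain gene, was higher in all 3 treated libraries, with 66, 65 and 95 against 103, 110 and 165 (log2 fold change 0.72, adjusted limma p 0.399), and Lonp1 was at −0.15. Groups did not overlap for Dnaja3, 1 of the 9, where 16.5% of all genes had such groups. Neither Dnaja3 nor Lonp1 passed the study thresholds.

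Further genes linked to protein damage were read for comparison. Of 8 further genes induced by proteotoxic agents, 4 were higher and 4 lower, with a median of 0.10. Zfand2a, which encodes an arsenite- and heat-inducible partner of the proteasome, had 24, 31 and 28 in the untreated and 32, 46 and 52 in the treated libraries (log2 fold change 0.61, adjusted limma p 0.561). Ier5, a target and activator of HSF1, was at −0.82 (unadjusted limma p 0.0210, adjusted p 0.340). Groups did not overlap for Zfand2a, 1 of the 8, where 16.5% of all genes had such groups, and they overlapped for Ier5. Of 31 proteasome subunits, 9 were higher and 22 lower, with a median of −0.14. An unadjusted p-value under 0.05 was reached by 1 higher and 3 lower subunits, where 10.9% of all genes reached it. Groups did not overlap in 3 of the 31, where 16.5% of all genes had such groups. The study thresholds were passed by 1, where 5.7% of all genes passed them. Among the lower ones, Psmd12 was at −0.91 (unadjusted limma p 0.00571) and Psmb5 at −0.68 (0.0150), both with groups that did not overlap. Psmb2 alone passed the study thresholds, with 161, 275 and 177 in the untreated and 211, 764 and 735 in the treated libraries and a log2 fold change of 1.30 (adjusted limma p 0.282, or 0.0303 with the replicate block, and 0.0303 to 0.670 over all alternatives), and its groups overlapped. It no longer passed without untreated replicate 1 (1.15, unadjusted limma p 0.0584) or without amisulpride replicate 2 (0.98, 0.0652).

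The chaperones of the endoplasmic reticulum (ER), which are under other regulators than HSF1, were mostly higher. Of 19, 16 were higher and 3 lower, with a median of 0.27, where 50.1% of all genes tested were higher. An unadjusted limma p-value under 0.05 was reached by 0, where 10.9% of all genes reached it. Pdia3 was at 0.52 and Hyou1 at −0.49. The integrated stress response, in which ATF4 raises a set of genes when translation initiation is slowed, had the highest median of these lists, 0.52 (0.28 without amisulpride replicate 2). Among its 10 genes, 9 were higher, 4 reached an unadjusted p of 0.05, 3 of these passed the study thresholds, and 6 had groups that did not overlap. Over all genes these shares were 50.1% higher, 10.9%, 5.7% and 16.5%. Trib3, Atf3 and Ddit3, which encodes CHOP, were those 3. The median and each of these counts include Atf3, which would not have been tested without its treated libraries.

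Trib3 had 105, 184 and 345 normalised counts in the untreated and 405, 614 and 587 in the treated libraries. Its change was 1.48 ± 0.38 (log2, SE) with an adjusted limma p of 0.154, or 0.00899 with the replicate block, and 0.00754 to 0.411 over all alternatives. Atf3 had 7, 8 and 16 against 32, 32 and 27. It passed the filter through the treated libraries and 1 untreated one, so no test result of its own is given. Ddit3 had 253, 221 and 214 against 480, 695 and 306, a change of 1.03 ± 0.30 (log2, SE) and an adjusted limma p of 0.212. It fell short of the study thresholds when untreated replicate 3 was left out (0.98) and when amisulpride replicate 2 was left out (0.74). The difference between these lists and the heat shock genes was not tested.

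The paired fit changed some of these counts. With the replicate block, 1 gene reached an unadjusted p-value under 0.05 in each of 4 lists that otherwise had 0, where 14.6% of all genes did. These were Hsf2 (limma p 0.0361), Bag2 (0.0302), Cct2 (0.0497) and, among the ER chaperones, Dnajb11 (0.0262), and none of them passed the study thresholds in that fit. The integrated stress response had 5 such genes in place of 4, with Atf3 included in both counts. Dnajb11 had 311, 261 and 208 normalised counts in the untreated and 265, 1835 and 272 in the treated libraries. Its mean difference thus rested mostly on amisulpride replicate 2, and its groups overlapped.

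The counts are descriptions of each list, and over all 6 libraries, with neither weights nor block, 0 genes of the chaperone and stress lists were past 0.05 after adjustment. Among the alternatives, Ddit3 was past it with weights per library (adjusted limma p 0.0267) and without amisulpride replicate 3 (0.0271), over a range of 0.0267 to 0.587, as were Hspb6 with weights and Psmb2 and Trib3 with the replicate block.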

How the data were processed

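The 3′ end libraries of 3 untreated and 3 amisulpride-treated cultures were sequenced on an Ion Proton instrument. The authors mapped reads to mm10 with TopHat2 and then Bowtie2, counted them per gene with GenomicRanges, and normalised them for DESeq within metaseqr. Versions are not given in the sources used here. The deposited values are a score, namely counts divided by 1 factor per library and rounded, and the authors deposited GC content as a fraction. Fold changes and p-values of the authors were not used, nor were 12 further columns of the same libraries on other scales.

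Log2(normalised count + 1) values were modelled with limma (version 3.58.1, R 4.3.3) with a variance trend and two-sided tests over the 12614 genes with at least 10 in at least 3 of 6 libraries, with Benjamini-Hochberg adjustment. This scale understates the change of low genes. An exact permutation test of 3 against 3 cannot go below 0.1 and was not used. The main comparison had no block, since the methods mention none. The replicate numbers do pair the libraries: deviations from the group means correlated at 0.229, 0.240 and 0.201 within numbers and at −0.149 to −0.0777 between them, so a replicate block was the paired alternative. Reads per library were estimated from the step between low values, with less certainty in untreated replicate 1, and floors cover counting error only. Limma and the step estimate were tested on simulated data.

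The 10 genes and the lists were chosen with earlier results of these data known. All 10 are named. From each other list the genes past the study thresholds are named, at most 3 each way, or otherwise the gene with the lowest p in each direction. Cryab, Hspb8, Dnajb11, Psmd12, Psmb5, the pseudogenes and the myeloid markers Lyz2, Cd14 and Adgre1 were added after their values were seen. Shared words were counted in the last 300 bases of transcripts of the GRCm38 annotation. One marker check is not reported here.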

Additional observations from a re-analysis of the deposited data

How the results depend on the processing

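Each gene and list was recomputed with another pseudocount, 2 other filters, 3 other scalings, weights per library, a replicate block with and without GC correction, no variance trend, and each library left out. For the 10 heat shock genes, 153 of the values kept direction and call. Without untreated replicate 1, Hspa1a (−1.18), Hspa1b (−1.16) and their sum (−1.17) passed the study thresholds, and the sign turned for Hsph1 (−0.079), Hsp90aa1 (0.066) and Bag3 (0.010). Without amisulpride replicate 3 it turned for Hsph1 (−0.049), Hspb1 (0.049), Bag3 (0.028) and Lonp1 (0.032), and with weights per library for Hsph1 (−0.053), Hsp90aa1 (0.012) and Bag3 (0.042). The cause was not tested.

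With any 1 library left out, the sum of Hspa1a and Hspa1b ranged from −1.17 to −0.33, the number of the 10 genes past the thresholds from 0 to 2, and their median from −0.20 to −0.04. The paired fit with the replicate block gave −0.75 for Hspa1b and −0.70 for the sum and changed no call of the 10 genes at the study thresholds. Summing Hspa8, Hspb1 and the HSP90 genes with their look-alikes, chosen after seeing the data, gave changes on the same side.

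Over all single omissions, the extremes of the turned genes were −0.079 to 0.39 for Hsph1, −0.40 to 0.049 for Hspb1, −0.25 to 0.066 for Hsp90aa1, −0.27 to 0.028 for Bag3 and −0.30 to 0.032 for Lonp1.

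Of the other genes named, 370 values kept direction and call, 4 lost a call (Psmb2 and Ddit3), 6 gained one and 1 turned. The gains were Bag2 with weights (−1.19), without untreated replicate 1 (−1.06) and without amisulpride replicate 3 (−1.21), Ier5 without untreated replicate 2 (−1.08) and without amisulpride replicate 1 (−1.04), and Hsf2 without amisulpride replicate 1 (−1.05). Hspb2 was not tested without any one of the untreated libraries. Over all genes tested, 36 had an adjusted p under 0.05, against 57 with a pseudocount of 5, 57 without a filter, 66 with quantile normalisation, 195 with weights, 263 with the replicate block and 260 with GC correction added. With 1 library left out the number was 0 to 120. With 1 library left out, list medians ranged from −0.25 to −0.02 for proteasome subunits, 0.00 to 0.32 for the proteotoxic-inducible genes, −0.19 to 0.00 for the chaperonin and prefoldin, −0.21 to −0.04 for the exchange factors, −0.10 to 0.03 for the J-domain genes and −0.00040 to 0.16 for the mitochondrial list. At 3 libraries per group and 2.52 to 4.71 M reads, the 95% intervals of Hsf1, Hspa1a and Hspa1b reached below −1.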
